A study of Homo sapiens with 6 samples.

Results

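The amino acid transporters described here are the protein-coding genes of the solute carrier (SLC) families SLC1A, SLC3A, SLC6A, SLC7A, SLC36A, SLC38A and SLC43A. They were chosen by name alone, as every protein-coding gene whose symbol is one of these 7 family stems followed by digits only, which gave 59 of the 57914 genes in the table. RNA was measured in A375, an established human melanoma cell line, after live staining with Aldefluor, a substrate that aldehyde dehydrogenases (ALDH) turn into a fluorescent product held in the cell. Cells in the top 5% of the signal formed the group ALDH_High and those in the bottom 5% formed ALDH_Low, with 3 libraries in each. Both groups came from the same line with no drug, transgene or deletion named in the labels, and both had grown in high-glucose DMEM with fetal serum and added L-glutamine, so a free amino acid that several of these carriers move was supplied to both. Nothing states that the 3 libraries of a group came from separate cultures, so the p-values measure the spread between these libraries, which may be technical.

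Amino acids are polar and cross the plasma membrane through carriers. SLC1A proteins take up glutamate, aspartate or small neutral amino acids with sodium, SLC38A proteins take up glutamine, alanine and other neutral amino acids with sodium, and SLC36A proteins move small amino acids with protons, in part out of lysosomes. Several SLC7A proteins are exchangers that reach the cell surface only when bound to an SLC3A heavy chain: SLC7A5 (LAT1) with SLC3A2 (4F2hc, CD98) brings in leucine and other large neutral amino acids, and SLC7A11 (xCT) with SLC3A2 brings in cystine in exchange for glutamate. SLC6A proteins use sodium and chloride and carry neurotransmitters, glycine, taurine and creatine as well as neutral amino acids, and SLC43A1 and SLC43A2 carry branched-chain and other large neutral amino acids. In melanoma, as in other tumours, LAT1, SLC1A5 (ASCT2) and xCT are the carriers most studied, for leucine signalling to the growth kinase complex mTORC1, glutamine uptake and glutathione supply.

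Total counts per library lay between 26692868 and 37830603. ALDH1A3, the aldehyde dehydrogenase named in the title of the series, was at 649 to 1159 CPM (counts scaled to a library's total) in ALDH_High and 351 to 422 in ALDH_Low. Among markers of the labelled melanoma lineage SOX10 was abundant in both groups, while MLANA and TYR, genes of the pigment cell programme, had at most 3 counts in any library, and the summed CPM of the 8 lineage markers was 670 to 843 in ALDH_High against 212 to 233 in ALDH_Low. SOX10 made up most of that sum, at means of 662 and 195 CPM, while MITF of the same list went the other way, at 12.9 and 24.9 CPM. The 8 white blood cell markers summed to 14.5 to 28.1 CPM in ALDH_High and 58.4 to 70.3 in ALDH_Low, most of it CD68 (means of 17.2 and 63.5 CPM), with PTPRC at 4 counts or fewer and NKG7 at 0. LYZ of the same list went the other way, at means of 3.797 and 1.232 CPM. Of the 5 epithelial markers, KRT8 and KRT18 gave nearly the whole of a sum of 379 to 682 CPM in ALDH_High and 1155 to 1742 in ALDH_Low, and EPCAM had at most 9 counts. The 6 fibroblast markers summed to 17.4 to 19.9 and 19.8 to 23.3 CPM. Transcripts of the mitochondrial genome took 1.31% to 1.66% of the counts in ALDH_High and 2.00% to 3.06% in ALDH_Low. The lineage, white blood cell and epithelial sums and the mitochondrial share did not overlap between the groups, and their part in the results below was not tested. The same number of transporters, 8, passed the threshold after the mitochondrial genes had been removed. Taking these genes out mainly rescales the counts of the others, so it cannot test what their share reflects. In sorted bulk samples, fewer cells of a kind and less RNA per cell cannot be told apart.

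Of the 59 transporters, 32 had enough counts to be tested and 27 did not. Between the groups 8 of the 32 differed and are named called below, 5 higher and 3 lower in ALDH_High, by edgeR's quasi-likelihood test with p-values adjusted by Benjamini-Hochberg over all 17047 genes tested (threshold 0.05). That is 25% of the tested members, beside 20.6% of all genes tested. By direction, 10.8% of all genes tested were called higher and 9.83% lower. The median log2 fold change of the tested members was 0.028 and that of all genes tested -0.013, which lie close together. The median absolute log2 fold change was 0.37 for members and 0.28 for all genes tested. In 11 of the 32 members (34.4%) the CPM of the 3 ALDH_High libraries did not overlap that of the 3 ALDH_Low libraries, beside 37.8% of all genes tested. The members called were SLC1A1, SLC1A4, SLC7A2, SLC38A10 and SLC43A1 on the higher side and SLC1A3, SLC1A5 and SLC6A11 on the lower side, so that 4 of the 8 were in the SLC1A family.

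**Figure D1:**
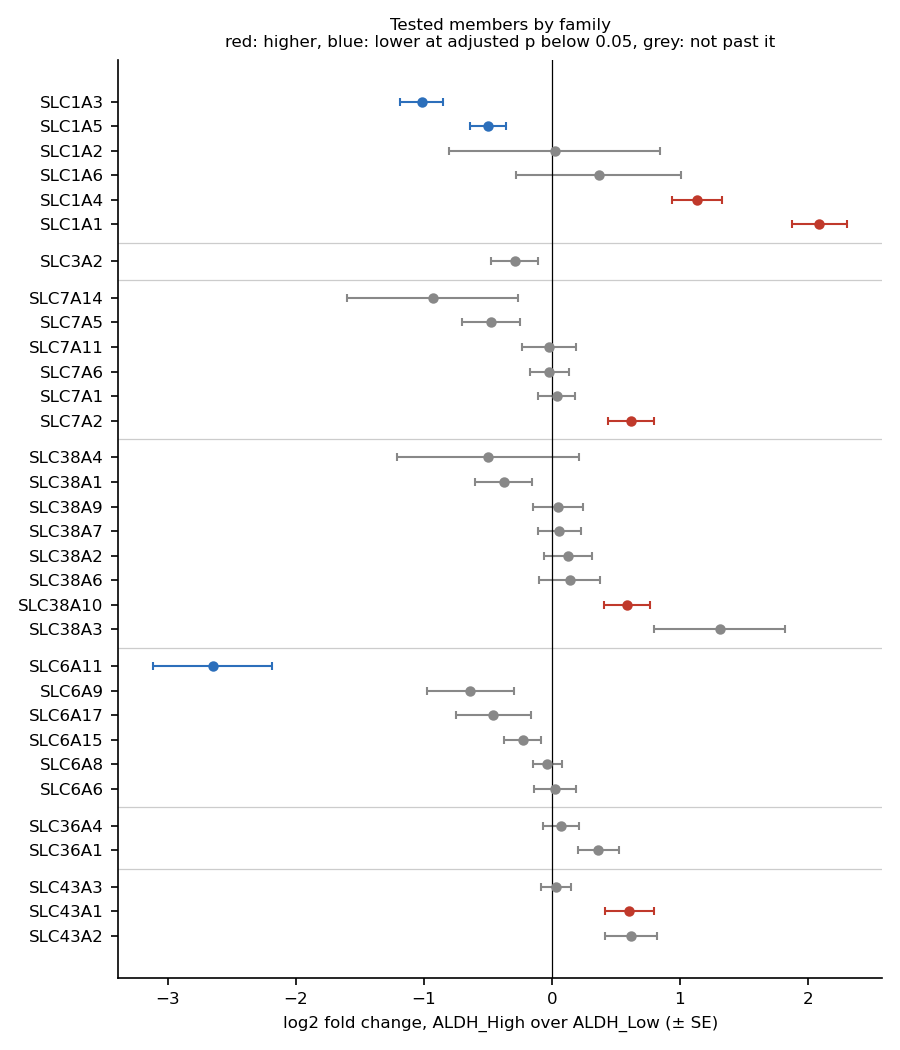
Log2 fold change of each of the 32 tested transporters, ALDH_High over ALDH_Low, with its standard error, ordered by family; red and blue points passed an adjusted p of 0.05 as higher and lower in ALDH_High. SLC1A1 lies furthest to the right at 2.09 and SLC6A11 furthest to the left at -2.65, while most grey points sit within 0.5 of 0.

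The SLC1A family changed in both directions. SLC1A1 (EAAT3), which takes up glutamate, aspartate and cysteine, and SLC1A4 (ASCT1), an exchanger of alanine, serine, cysteine and threonine, rose in ALDH_High, while SLC1A3 (EAAT1, GLAST), another glutamate carrier, and SLC1A5 (ASCT2), the glutamine-accepting relative of SLC1A4, fell. The sequences that lie before the annotated starts of these 4 genes are given first, because the 2 pairs are close relatives that moved in opposite directions. Each is the run of 250 bases upstream of the RefSeq start nearest to the 5′ end of the gene, on GRCh38.p14 and read 5′ to 3′ on the gene's strand: chr9:4490218-4490467 (+ strand) for SLC1A1, chr2:64988229-64988478 (+ strand) for SLC1A4, chr5:36596338-36596587 (+ strand) for SLC1A3 and chr19:46788595-46788844 (- strand) for SLC1A5. Capitals mark a match to TGATGNAAN, the C/EBP-ATF response element (CARE) by which the stress factor ATF4 is known to act on amino acid genes.
SLC1A1: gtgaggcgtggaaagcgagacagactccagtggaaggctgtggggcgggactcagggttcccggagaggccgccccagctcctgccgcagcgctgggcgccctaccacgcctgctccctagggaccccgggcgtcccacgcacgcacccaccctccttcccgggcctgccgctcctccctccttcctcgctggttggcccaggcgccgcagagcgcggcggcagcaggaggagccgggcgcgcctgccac
SLC1A4: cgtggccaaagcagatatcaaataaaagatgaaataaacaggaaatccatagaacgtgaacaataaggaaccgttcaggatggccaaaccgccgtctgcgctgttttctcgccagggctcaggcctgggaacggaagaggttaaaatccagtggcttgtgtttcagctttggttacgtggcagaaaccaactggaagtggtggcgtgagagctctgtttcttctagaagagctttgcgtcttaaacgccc
SLC1A3: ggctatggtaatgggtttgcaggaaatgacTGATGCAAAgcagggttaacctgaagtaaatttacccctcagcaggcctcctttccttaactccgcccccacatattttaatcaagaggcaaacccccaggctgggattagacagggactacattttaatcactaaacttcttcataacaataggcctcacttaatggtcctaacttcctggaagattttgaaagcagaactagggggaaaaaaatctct
SLC1A5: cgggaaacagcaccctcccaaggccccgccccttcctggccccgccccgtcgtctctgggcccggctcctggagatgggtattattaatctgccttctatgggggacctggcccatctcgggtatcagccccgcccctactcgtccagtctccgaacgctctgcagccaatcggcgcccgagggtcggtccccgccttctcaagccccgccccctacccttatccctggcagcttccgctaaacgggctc
One of the 4 runs, that of SLC1A3, held the element.

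The RefSeq table held 66 promoter windows (250 bases before to 50 after a start) for 44 of the 59 members, and none for the other 15. A CARE match on either strand was found in 6 of the 66 windows, 1 window in each of 6 genes. Of the 25 tested members with a window, 7 were called, where 20.6% of all genes tested were called. These 7 include 3 of the 6 genes, SLC1A3, SLC1A4 and SLC1A5, while SLC3A2, SLC7A1 and SLC38A1 were not called. All 6 matches are shown. Each is printed with up to 10 bases on either side, on the gene's strand, and the match is in capitals: chr5:36596358-36596386 (+ strand) for SLC1A3, chr2:64989381-64989409 (+ strand) for SLC1A4, chr19:46784893-46784921 (- strand) for SLC1A5, chr12:46266502-46266530 (- strand) for SLC38A1, chr11:62881725-62881748 (+ strand) for SLC3A2 and chr13:29595663-29595691 (- strand) for SLC7A1.
SLC1A3: aggaaatgacTGATGCAAAgcagggttaa
SLC1A4: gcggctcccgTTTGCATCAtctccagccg
SLC1A5: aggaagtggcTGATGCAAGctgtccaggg
SLC38A1: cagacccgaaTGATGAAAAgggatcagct
SLC3A2: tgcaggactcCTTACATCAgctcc
SLC7A1: ggcgcactgcTGATGAAACctggcgccgg
Those of SLC1A4 and SLC3A2 read as the reverse complement, since the match is on the other strand. The matches of SLC1A4 and SLC1A5 belong to start sites further inside the gene than those shown above. More windows give a gene more chances of a match. SLC1A3, SLC1A5 and SLC3A2 had 3 windows each, SLC1A4 and SLC38A1 had 2, and SLC7A1 had 1. A link between matches and calls was not tested. The share of member windows with a CARE was 9.09%, and of all 35116 windows in the table it was 3.61%. Counted in the 250 bases before the start alone, the shares were 3.03% (2 windows) and 3.13%, so the difference lay in matches at or just after the start. The core of the antioxidant response element, TGACNNNGC, occurred in 7 member windows (10.6%, against 13.4% of all), and the E-box CACGTG, a palindrome that MYC and TFE family factors are known to bind, in 10 (15.2%, against 7.26% of all). Of the 10 members with an E-box, 5 had too few counts to be tested. Of the 7 called members with a window, 2 had the antioxidant core and 2 an E-box, beside the 3 with a CARE. Among the 42 windows of tested members, 5 held an E-box. None of the matches overlapped one of another motif.

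SLC1A1 (chromosome 9, 4490468 to 4587469, + strand, GENCODE 44 on GRCh38, as for the genes below) was at 43.3, 43.4 and 42.1 CPM in ALDH_High libraries 1, 2 and 3, and at 13.8, 6.93 and 9.42 CPM in ALDH_Low libraries 1, 2 and 3, where CPM is scaled with TMM factors. Every ALDH_High library stood above every ALDH_Low library, and the 3 ALDH_High libraries differed from each other by little. The means were 43.0 ± 0.717 and 10.04 ± 3.47 CPM (SD, n = 3 each), a 4.26-fold difference with a log2 fold change of 2.09 (SE 0.22, edgeR adjusted p = 0.000121). This was the largest rise among the tested transporters, and SLC1A1 ranked first of them by p-value.

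SLC1A4 (chromosome 2, 64988477 to 65023865, + strand) was at 72.5, 79.0 and 86.0 CPM in ALDH_High and 24.5, 44.1 and 39.7 CPM in ALDH_Low. No values overlapped between the groups, and ALDH_Low library 1 was the lowest. This was a log2 fold change of 1.14 (SE 0.20, edgeR adjusted p = 0.00247).

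SLC1A3 (chromosome 5, 36596588 to 36688334, + strand) was low in both groups, at 5.99, 7.21 and 6.57 CPM in ALDH_High and 11.6, 14.1 and 14.3 CPM in ALDH_Low. All ALDH_High values were under all ALDH_Low values, with a log2 fold change of -1.01 (SE 0.17, edgeR adjusted p = 0.00205). The calls of SLC1A1, SLC1A3 and SLC1A4 held in each of the 16 alternative fits tried, those without 1 of the 6 libraries among them.

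SLC1A5 (chromosome 19, 46774883 to 46788594, - strand), the most abundant of the family, was at 369, 372 and 362 CPM in ALDH_High and 417, 611 and 530 CPM in ALDH_Low. The ALDH_High libraries were close together and all lay below the ALDH_Low libraries, which spread more widely. This was a log2 fold change of -0.50 (SE 0.14, edgeR adjusted p = 0.0292). This call depended on single libraries: the edgeR adjusted p was 0.0933 without ALDH_High library 2, 0.0903 without ALDH_High library 3, 0.122 without ALDH_Low library 2 (log2 fold change -0.37) and 0.0926 without ALDH_Low library 3.

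Exact two-sided permutation tests of the 3 against 3 CPM values gave p = 0.1 for each of the 4 genes, the smallest p this design allows. The other tested members of the family, SLC1A2 (EAAT2) and SLC1A6 (EAAT4), stayed at or below 1.24 CPM in every library and were not called (log2 fold changes 0.023 and 0.37, edgeR adjusted p = 0.989 and 0.749).

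Levels can be compared between genes in TPM, the authors' abundances, which correct for transcript length. Summed over the family, SLC1A transcripts were at 245 ± 17.4 TPM in ALDH_High and 291 ± 53.2 TPM in ALDH_Low (SD, n = 3 each). SLC1A5 made up 79.7% ± 0.921 of that sum in ALDH_High and 91.3% ± 0.806 in ALDH_Low. SLC1A4 made up 10.5% ± 0.902 and 3.85% ± 0.504. SLC1A1 made up 7.77% ± 0.122 and 1.57% ± 0.833, and SLC1A3 1.88% ± 0.155 and 3.12% ± 0.282. For each of these shares the 2 groups' libraries lay apart, while those of the sum overlapped. Between the 2 neutral exchangers, the TPM of SLC1A5 was 8.28, 7.67 and 6.84 times that of SLC1A4 in the ALDH_High libraries and 27.7, 22.6 and 21.7 times in the ALDH_Low libraries. Between the 2 glutamate carriers the order reversed: SLC1A1 was at 4.58, 3.81 and 4.06 times the TPM of SLC1A3 in ALDH_High and at 0.750, 0.311 and 0.417 times in ALDH_Low. SLC1A1 was thus the more abundant of the pair in every ALDH_High library and SLC1A3 in every ALDH_Low library.

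**Figure D2:**
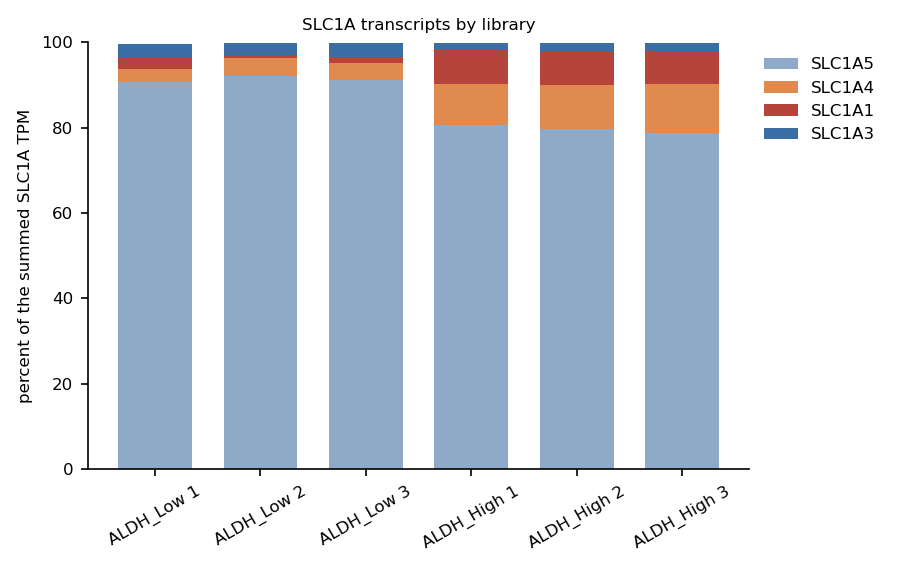
Percent of the summed SLC1A TPM taken by SLC1A5, SLC1A4, SLC1A1 and SLC1A3 in each library, ALDH_Low to the left. SLC1A5 fills 91.3% of the bar on average in ALDH_Low and 79.7% in ALDH_High, where SLC1A4 and SLC1A1 take up most of the rest.

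The heavy chain SLC3A2 and its light chain SLC7A5 were the most abundant transcripts of the set, and neither was called, nor were the light chains SLC7A6 and SLC7A11. SLC7A5 (chromosome 16, 87830023 to 87869507, - strand) was at 1512, 2317 and 2178 CPM in ALDH_High and 1860, 3497 and 2973 CPM in ALDH_Low. The groups overlapped, with library 1 the lowest of each. The log2 fold change was -0.47 (SE 0.23, edgeR adjusted p = 0.183, exact permutation p = 0.3). Without ALDH_Low library 1 it was -0.68 with an edgeR adjusted p of 0.0365, and without a filter on low counts the adjusted p was 0.00521 at -0.46. The fit without a filter was the more lenient, with 4466 genes called over all against 3513 in the main fit. Passes in it, here and below, carry less weight.

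SLC3A2 (chromosome 11, 62856004 to 62888880, + strand) was at 796, 917 and 815 CPM in ALDH_High and 714, 1239 and 1135 CPM in ALDH_Low. The lowest value of all was again ALDH_Low library 1 and the other ALDH_Low libraries were the highest. Its log2 fold change was -0.29 (SE 0.18, edgeR adjusted p = 0.320, exact permutation p = 0.4), and -0.48 with an adjusted p of 0.0291 without ALDH_Low library 1. In TPM, SLC7A5 stood at 0.774, 1.03 and 1.09 times SLC3A2 in ALDH_High and at 1.06, 1.15 and 1.07 times in ALDH_Low, so light and heavy chain transcripts were at near-equal levels except in ALDH_High library 1.

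SLC7A11 (chromosome 4, 138164097 to 138242349, - strand), the cystine exchanger, was at 31.1, 34.0 and 45.2 CPM in ALDH_High and 26.3, 46.5 and 39.1 CPM in ALDH_Low. The ranges covered each other, and the log2 fold change was -0.020 (SE 0.21, edgeR adjusted p = 0.963, exact permutation p = 0.9). Its sign turned between fits, which left it without a direction. In TPM, SLC7A11 was at about 0.01 of the level of SLC3A2: the ratio was 0.0112, 0.0106 and 0.0160 in ALDH_High and 0.0106, 0.0108 and 0.00991 in ALDH_Low. SLC7A6, a further light chain that exchanges cationic for neutral amino acids, had a log2 fold change of -0.019.

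SLC7A2 (CAT2, chromosome 8, 17497088 to 17570573, + strand), a carrier of arginine, lysine and ornithine that needs no heavy chain, was higher in ALDH_High, at 13.7, 17.2 and 17.9 CPM against 10.1, 12.7 and 9.06 CPM. The groups did not overlap, though ALDH_High library 1 and ALDH_Low library 2 lay close together. The log2 fold change was 0.62 (SE 0.18, edgeR adjusted p = 0.0340). The adjusted p was 0.105 without ALDH_High library 2, 0.108 without ALDH_High library 3, 0.1002 without ALDH_Low library 1 and 0.124 without ALDH_Low library 3. SLC7A1 (CAT1), which carries the same amino acids, was at 41.4 TPM over all libraries against 2.82 TPM for SLC7A2, and had a log2 fold change of 0.039. SLC7A14, a low member at 1.27 CPM or less, was not called at -0.93 (edgeR adjusted p = 0.383).

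**Figure D3:**
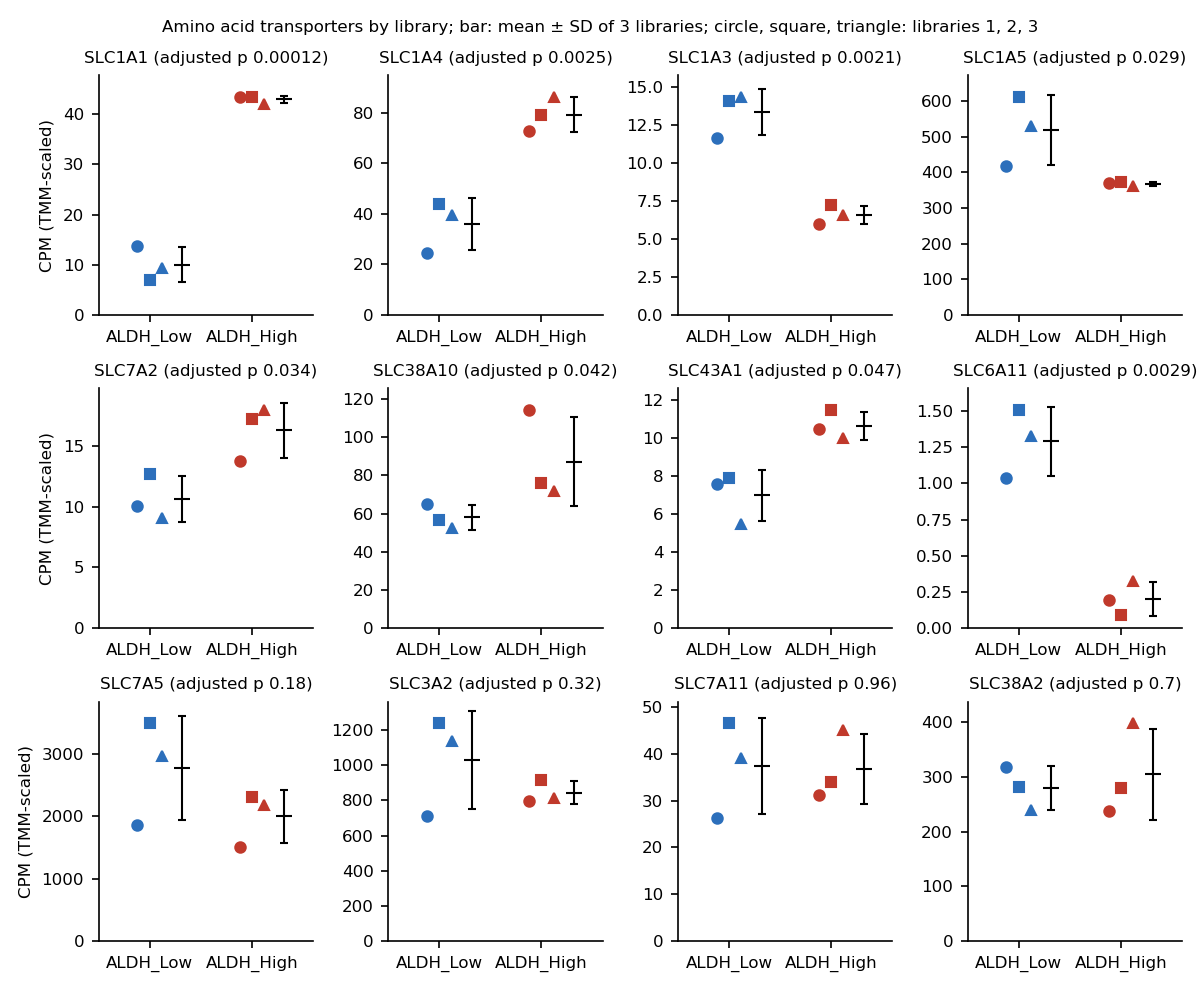
TMM-scaled CPM of 12 transporters in each of the 6 libraries, with the mean and SD of each group of 3 beside the points; each panel has its own linear axis from 0. In the 8 panels of called genes the groups do not overlap, and in those of SLC7A5, SLC3A2, SLC7A11 and SLC38A2 they do.

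Among the 8 tested SLC38A genes, 1 was called. SLC38A10 (chromosome 17, 81244811 to 81295547, - strand), a member of the family of sodium-coupled neutral amino acid carriers, was at 114, 75.8 and 71.9 CPM in ALDH_High and 65.2, 56.4 and 52.5 CPM in ALDH_Low. The groups did not overlap, and library 1 was the highest of each, most of all in ALDH_High. The log2 fold change was 0.59 (SE 0.18, edgeR adjusted p = 0.0417). Without ALDH_High library 1 it was 0.36 with an adjusted p of 0.0525, and the adjusted p was 0.0542 without ALDH_Low library 1, 0.123 without ALDH_Low library 2 and 0.155 without ALDH_Low library 3. With upper-quartile scaling it was 0.0559.

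SLC38A2 (SNAT2, chromosome 12, 46358188 to 46372773, - strand), the member of this family best known to be induced when cells lack amino acids, was at 237, 280 and 398 CPM in ALDH_High and 318, 281 and 239 CPM in ALDH_Low. The groups overlapped throughout, and the highest and the lowest values were both in ALDH_High. The log2 fold change was 0.13 (SE 0.19, edgeR adjusted p = 0.697, exact permutation p = 0.9), and it lay between -0.10 and 0.29 when single libraries were left out. SLC38A1 (SNAT1), a neighbour of SLC38A2 on chromosome 12, was at 90.7, 134 and 160 CPM in ALDH_High against 145, 216 and 137 CPM in ALDH_Low (log2 fold change -0.38, edgeR adjusted p = 0.283, and 0.0493 without a filter on low counts). SLC38A9, a lysosomal carrier and arginine sensor for mTORC1, had a log2 fold change of 0.048, and SLC38A7, a lysosomal glutamine carrier, 0.060. SLC38A3 (SN1, a glutamine carrier) had the largest difference of the SLC38A family, 1.31, but on 9 to 68 counts a library, and it was not called (edgeR adjusted p = 0.105). Without ALDH_High library 1 the value was 0.69, and without a filter on low counts it passed (1.33, edgeR adjusted p = 0.0145). Its groups did not overlap, at 2.68, 1.04 and 0.909 CPM in ALDH_High against 0.804, 0.301 and 0.719 CPM in ALDH_Low.

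All 3 SLC43A genes were tested. SLC43A1 (LAT3, chromosome 11, 57484534 to 57515780, - strand), a carrier of branched-chain amino acids, was higher in ALDH_High, at 10.5, 11.5 and 10.00 CPM against 7.57, 7.90 and 5.46 CPM. The groups did not overlap, and the log2 fold change was 0.61 (SE 0.19, edgeR adjusted p = 0.0466). This was the call nearest to the threshold: the adjusted p was above it, between 0.0626 and 0.143, without any one library other than ALDH_High library 1, 0.0613 with upper-quartile scaling and 0.0508 with a minimum of 10 counts in every library. SLC43A2 (LAT4), its closest relative in substrates, lay just outside the threshold with a nearly equal log2 fold change of 0.62 (SE 0.20, edgeR adjusted p = 0.0557), and passed it with DESeq2's Wald test (adjusted p = 0.0246). It was at 9.54, 8.77 and 7.83 CPM in ALDH_High and 5.94, 6.59 and 4.46 CPM in ALDH_Low, again without overlap. SLC43A3, which despite its family name is known as a carrier of purine nucleobases, was the fourth most abundant of the set at 180 TPM and had a log2 fold change of 0.032.

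Of the 6 tested SLC6A genes, SLC6A11 (GAT3, chromosome 3, 10816201 to 10940714, + strand), a carrier of the neurotransmitter GABA, was the 1 called. It was barely detected in ALDH_High, with 5, 3 and 11 counts, and had 40, 45 and 37 counts in ALDH_Low, which is 0.20, 0.087 and 0.32 CPM against 1.04, 1.51 and 1.33 CPM. The groups did not overlap, and the log2 fold change was -2.65 (SE 0.47, edgeR adjusted p = 0.00285). It passed the filter on low counts through its ALDH_Low libraries, so its call and lack of overlap are not independent of that filter. Its mean was under 1 CPM, the minimum set for naming a called member, and it is named after its values were seen. The abundant SLC6A genes were not called: SLC6A8, which carries creatine, had a log2 fold change of -0.034 (edgeR adjusted p = 0.877), SLC6A6, which carries taurine, 0.023, and SLC6A15, a carrier of branched-chain amino acids and proline, -0.23 (edgeR adjusted p = 0.317). A near-identical pseudogene of SLC6A8, SLC6A10P, held counts equal to 7.82% to 10.9% of the SLC6A8 count in ALDH_High and 0.718% to 1.61% in ALDH_Low, and with these added the value for SLC6A8 was 0.076 (edgeR adjusted p = 0.699), so no direction can be given. SLC6A9 (GlyT1), which carries glycine, spread widely within both groups, at 9.23, 14.6 and 19.8 CPM and 13.2, 34.3 and 20.7 CPM (log2 fold change -0.64, edgeR adjusted p = 0.237, and 0.00417 without a filter on low counts).

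The 2 tested SLC36A genes were not called. SLC36A1 (PAT1), which exports small amino acids from lysosomes with protons, was at 25.2, 23.6 and 23.8 CPM in ALDH_High and 18.7, 22.9 and 14.8 CPM in ALDH_Low. Again no values overlapped, but the gap was narrow (log2 fold change 0.36, SE 0.16, edgeR adjusted p = 0.154). SLC36A4 (PAT4) had a log2 fold change of 0.072. Among all 32 tested members, 12 had an absolute log2 fold change under 0.2, and 11 had an unadjusted edgeR p below 0.05. The shares of all genes tested were not counted, so neither number sets the members apart.

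On the TPM scale 26 transporters had a mean of at least 1. SLC7A5 led with a mean of 735 TPM over the 6 libraries and SLC3A2 followed with 704 TPM, but these neighbours did not differ beyond their spread, and SLC3A2 was the higher in ALDH_High library 1. Then came SLC1A5 at 231 TPM, SLC43A3 at 180, SLC38A2 at 128 and SLC6A8 at 88.2, before a step down to SLC7A1 at 41.4. These 6 members took 84.5% to 90.1% of the summed TPM of the set in each library. The order further down was tight: SLC38A10 and SLC38A1 at 32.4 and 32.1 TPM, SLC7A6, SLC6A15, SLC6A6 and SLC36A4 between 20.2 and 26.6, and SLC1A4 at 18.6 lay within the spread of the libraries from their neighbours. SLC7A11 stood at 8.06 TPM, between SLC38A7 and SLC38A6. The summed TPM of all 59 members was 1832, 2407 and 2398 in ALDH_High and 1985, 3094 and 2523 in ALDH_Low (2213 ± 329 and 2534 ± 554, SD, n = 3 each), which overlap. Library 1 was the lowest of each group, as it was for SLC7A5, the largest single term.

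**Figure D4:**
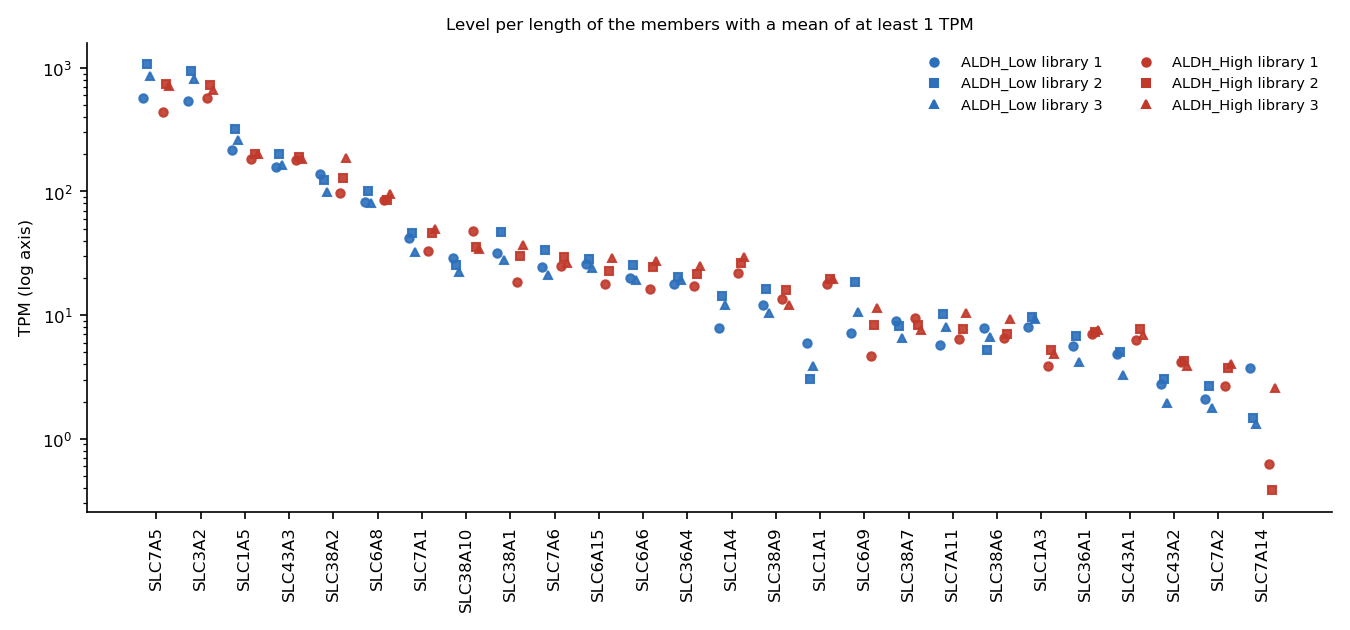
TPM of the 26 transporters with a mean of at least 1 TPM in each library, on a log axis, in order of the mean over the 6 libraries, ALDH_Low in blue and ALDH_High in red. SLC7A5 and SLC3A2 stand highest, at means of 735 and 704 TPM, and the colours separate most clearly at SLC1A1, SLC1A4 and SLC1A3, the last lower in ALDH_High.

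The 27 members that were not tested had at most 36 counts in any library, which leaves little to compare. SLC6A4, the serotonin carrier, had 36, 1 and 5 counts in ALDH_High and 4, 6 and 3 in ALDH_Low. It was the 1 untested member past the threshold in an alternative fit, without a filter on low counts (log2 fold change 1.89, edgeR adjusted p = 0.0331), and its groups overlapped, with a single high library, ALDH_High library 1. SLC7A8 (LAT2), a light chain of SLC3A2 in other tissues, reached 24 counts. SLC1A7 reached 14 counts, SLC3A1 and SLC6A14 13 each, SLC6A20 12, SLC7A7 11 and SLC6A16 10. SLC36A2, SLC6A12 and SLC7A9 reached 7 counts, and SLC38A5 and SLC7A3 5. At 3 counts or fewer in every library were 13 members: SLC6A7 and SLC6A13 with 3, SLC6A2 with 2, SLC6A3, SLC7A13 and SLC38A11 with 1, and SLC6A5, SLC6A18, SLC6A19, SLC7A4, SLC7A10, SLC36A3 and SLC38A8 with 0 in all 6 libraries. SLC3A1, the heavy chain of the kidney cystine carrier, and its partner SLC7A9 were thus both near 0, as were the brain glycine carrier SLC6A5 and the gut and kidney carrier SLC6A19.

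The other genes of amino acid handling were read from 5 lists, chosen with earlier results of these data known. Of 27 tested genes of amino acid synthesis and use, 2 rose and 5 fell in ALDH_High (25.9% called, beside 20.6% of all genes tested, median log2 fold change -0.015). GLUL, which makes glutamine from glutamate, rose from 4.61 ± 0.478 to 11.3 ± 2.97 CPM (SD, n = 3 each, log2 fold change 1.30, edgeR adjusted p = 0.00270). PYCR1, a proline synthesis enzyme, had a log2 fold change of 0.41 (edgeR adjusted p = 0.0472), a call lost without any one library other than ALDH_High library 1 (adjusted p between 0.0596 and 0.148). On the lower side, ASS1, which makes the precursor of arginine, was at 0.690 ± 0.1195 CPM in ALDH_High against 5.29 ± 1.46 CPM in ALDH_Low (log2 fold change -2.94, edgeR adjusted p = 0.000116). ODC1, the first enzyme of polyamine synthesis from ornithine, was at 49.9 ± 3.99 against 108 ± 6.39 CPM (log2 fold change -1.12, edgeR adjusted p = 9.8e-05). BCAT1, which removes the amino group of branched-chain amino acids, had a log2 fold change of -0.63 (edgeR adjusted p = 0.0149, and 0.0689 without ALDH_Low library 2). Its mitochondrial counterpart BCAT2 was lower too, at -0.44 (edgeR adjusted p = 0.0352), and was not followed through the fits without single libraries. ASNS, which makes asparagine, was not called, at -0.11.

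Of the 9 genes of glutathione synthesis and cystine use, none rose and 2 fell (22.2% called, near the 20.6% of all genes tested, median -0.035). GGT1, which breaks down glutathione outside the cell, was at 1.01 ± 0.361 CPM in ALDH_High against 2.54 ± 0.261 CPM in ALDH_Low (log2 fold change -1.32, edgeR adjusted p = 0.0149, with 0.0587 without ALDH_High library 3 and 0.0571 without ALDH_Low library 2). TXNRD1, a thioredoxin reductase, had a log2 fold change of -0.57 (edgeR adjusted p = 0.0409), and the call was lost without any one library other than ALDH_Low library 1 (adjusted p between 0.0618 and 0.160). GCLC and GCLM, the subunits of the enzyme that starts glutathione synthesis, were not called, at -0.065 and -0.24.

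Of the 33 genes of amino acid sensing by mTORC1, 4 rose and 1 fell (15.2% called, below the 20.6% of all genes tested, median -0.012). SESN3, of the leucine-binding sestrin family, was at 3.91 ± 1.199 CPM in ALDH_High against 0.735 ± 0.392 CPM in ALDH_Low (log2 fold change 2.39, edgeR adjusted p = 0.00273). SESN1, of the same family, rose by 0.74 on the log2 scale (edgeR adjusted p = 0.0183). SESN2, also a sestrin and the most abundant of them, was not called, at -0.046 (edgeR adjusted p = 0.879, means of 23.9 and 24.7 CPM). BMT2 (SAMTOR), a sensor of S-adenosylmethionine, rose by 0.76 (edgeR adjusted p = 0.0172) and RRAGD, a Rag GTPase, by 0.77 (edgeR adjusted p = 0.0188). RRAGD was not followed through the fits without single libraries. FLCN, which acts on RRAGC and RRAGD, was lower at -0.52 (edgeR adjusted p = 0.0327). The calls of SESN1 and BMT2 ended without ALDH_Low library 3 (adjusted p 0.0657 and 0.0652), that of SESN1 also without ALDH_High library 3 (0.0547), that of BMT2 also without ALDH_Low library 2 (0.0549), and that of FLCN without ALDH_High library 2 or 3 or ALDH_Low library 1 or 2 (between 0.118 and 0.129).

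Of the 16 regulators of the amino acid response, 2 rose and 6 fell, so that 50% were called beside 20.6% of all genes tested (median -0.14). Since the list was chosen with earlier results of these data known, its share is a description and not a test. ATF3, a stress-induced transcription factor, was at 20.3 ± 4.51 CPM in ALDH_High against 89.5 ± 44.5 CPM in ALDH_Low (log2 fold change -2.15, edgeR adjusted p = 0.00161). PPP1R15A, which ends the stress block on translation, fell by 0.97 on the log2 scale (edgeR adjusted p = 0.00175) and the transcription factor MYC by 0.86 (edgeR adjusted p = 0.00374). DDIT3, ATF5 and CEBPB fell too, by 0.69, 0.56 and 0.50 (edgeR adjusted p = 0.00902, 0.0206 and 0.0322), and were not followed through the fits without single libraries. The 2 that rose were kinases of the same pathway, EIF2AK3 (PERK), the sensor of the endoplasmic reticulum, at 1.003 (edgeR adjusted p = 0.00528), and EIF2AK4 (GCN2), the sensor of uncharged tRNA, at 0.53 (edgeR adjusted p = 0.0137, with 0.0536 and 0.0600 without ALDH_Low library 1 or 2). ATF4 itself was at 405 ± 35.0 and 435 ± 74.8 CPM and was not called (log2 fold change -0.10, edgeR adjusted p = 0.660). Among the transporters known as its targets, SLC1A4 rose, SLC1A5 fell, and SLC7A11, SLC7A5, SLC3A2 and SLC38A2 were not called.

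Of the 17 tested amino acid carriers outside the 7 families, 3 rose and none fell (17.6% called, below the 20.6% of all genes tested, of which 10.8% were higher and 9.83% lower, median 0.068). CLTRN (collectrin), which brings SLC6A19 and related carriers to the surface of kidney cells, was at 1.32 ± 0.295 against 0.297 ± 0.1199 CPM (log2 fold change 2.15, edgeR adjusted p = 0.00401), while SLC6A19 itself had no counts. SLC25A15, the mitochondrial ornithine carrier, rose by 0.60 on the log2 scale (edgeR adjusted p = 0.00957). SLC25A44, the mitochondrial carrier of branched-chain amino acids, had a log2 fold change of 0.35 (edgeR adjusted p = 0.0362), a call lost without any one library other than ALDH_High library 1 (adjusted p between 0.0798 and 0.121).

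**Figure D5:**
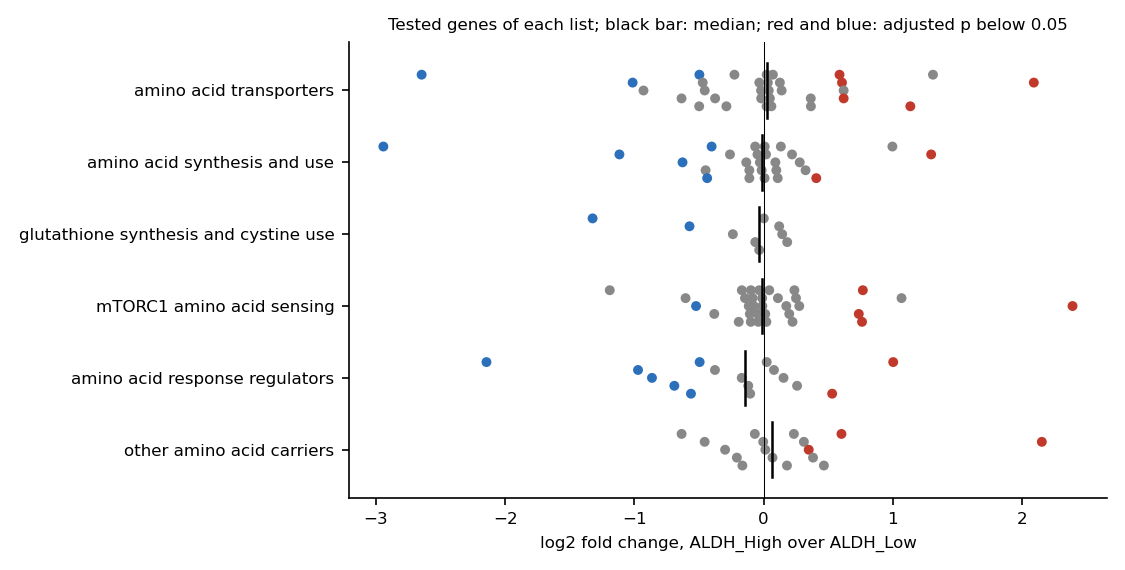
Log2 fold change, ALDH_High over ALDH_Low, of every tested transporter and of every tested gene of the 5 lists of amino acid handling; red and blue points passed an adjusted p of 0.05, and the black bar is the median of a row. All 6 medians lie between -0.14 and 0.068, and the regulators hold the highest share of called genes, 50%. The lists were chosen with earlier results of these data known.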

How the data were processed

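RNA of 6 sorted A375 samples (3 ALDH_High, 3 ALDH_Low) was analysed from one table. Libraries were prepared from mRNA with a strand-marking TruSeq kit, per the labels' protocols. The submitters' processing notes name FastQC 0.11.3, STAR 2.5.1b, HTSeq 0.6.1, DESeq2 and the build GRCh38, with no role or order, and the annotation release and the strand setting of the counting are not given in the sources used here. The deposited counts are whole numbers and were treated as rounded estimated counts, because in each library 133 to 177 genes have a count of 0 beside a TPM above 0. The deposited TPM values sum to 1000000 in every library, and the lengths behind them are not given. The notes name HTSeq, which counts whole reads, so how these counts were made is not settled here. Rows without a gene name (261, at most 0.0267% of a library's counts) have Ensembl identifiers and stayed in.

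Genes were filtered with filterByExpr (17047 kept), scaled with TMM and tested with edgeR 4.0.16 (glmQLFTest, two-sided, R 4.3.3), with Benjamini-Hochberg adjustment over all genes tested. Standard errors were derived from the F statistic (absolute log2 fold change over its square root). The script was tested on simulated data. Replicate numbers shared by the groups were not taken as pairs: deviations of same-numbered libraries correlated at 0.15, 0.076 and 0.11, not all above 0.1. Those of libraries with unlike numbers were lower, between -0.103 and 0.023. Replicate libraries differed by more than sampling noise. Named are the called members with a mean of at least 1 CPM, SLC3A2, SLC7A5, SLC7A11, SLC1A5, SLC38A2 and SLC1A3, untested members by highest count, and, among the genes of each list past the threshold, the 3 with the smallest p in each direction. Other genes named with values (SLC6A11, SLC43A2, SLC38A1, SLC38A3, SLC36A1, SLC6A9, SLC6A8, BCAT2, RRAGD, SESN2, DDIT3, ATF5, CEBPB, ATF4, ASNS, GCLC, GCLM and the members given by a fold change alone) were chosen after their values were seen. Details on 3 genes are not reported here. The members and lists were chosen with earlier results of these data known. Promoter sequences are RefSeq's on GRCh38.p14, and positions are from GENCODE 44, where all 59 members were matched by identifier.

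Alternatives were DESeq2 size factors, upper-quartile scaling, no filter, at least 10 counts in every library, a replicate block, each library left out, the DESeq2 1.42.0 Wald test, limma 3.58.1 on log2(TPM + 1) or log2(TPM + 0.1) where the mean TPM reached 1, or on all genes above 0, stricter thresholds and, chosen after seeing the data, removal of mitochondrial genes and addition of near-identical copies. The reads carry no molecular identifiers. The standard errors and p-values of edgeR hold the spread between libraries as well as counting error.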

Additional observations from a re-analysis of the deposited data

How the results depend on the processing

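Of the 8 called transporters, SLC1A1, SLC1A3 and SLC1A4 kept their call in all 16 alternative fits and SLC6A11 in the 13 that tested it. SLC6A11 was too low to be tested with at least 10 counts in every library or in limma at a mean TPM of at least 1. It had passed the main filter through its ALDH_Low libraries, so it is not as firm as the calls above. SLC1A5 and SLC7A2 kept their call in 9 of 16, SLC38A10 in 10 and SLC43A1 in 6, with the libraries that decide each named beside the result. The number of members called was 13 without a filter on low counts (12 tested in the main analysis and SLC6A4), 4 in each of the limma fits on TPM, 4 at an adjusted p below 0.01 and 4 with a minimum of 1 on the absolute log2 scale, and it lay between 4 and 7 when single libraries were left out (4 without ALDH_Low library 3, and 5 without ALDH_High library 2, ALDH_High library 3 or ALDH_Low library 2). The number called higher, 5, was 3 with upper-quartile scaling, 3, 3 and 2 in the limma fits, 2 under either stricter rule, and 2 to 4 with single libraries left out. The number called lower, 3, was 6 without a filter, 1 in the limma fits restricted to a mean TPM of 1 or more, and 2 to 5 with single libraries left out (5 without ALDH_Low library 1). Numbers of calls per list moved as follows: synthesis and use, 7, was 3 under either stricter rule and 3 to 8 with single libraries left out; glutathione and cystine, 2, was 1, 1 and 0 in limma, 0 at 0.01, 1 with the fold minimum and 0 to 2; mTORC1 sensing, 5, was 3, 3 and 1 in limma, 1 under either stricter rule and 2 to 6; response regulators, 8, was 2 in limma on all genes, 5 at 0.01, 2 with the fold minimum and 5 to 8; other carriers, 3, was 5 without a filter, 5 with DESeq2, 1 with the fold minimum and 2 to 4. The sign turned for SLC7A11 (0.042, 0.047 and 0.042 in limma, -0.21 to 0.17 with single libraries left out), for SLC6A8 (0.020, 0.021 and 0.020 in limma, 0.076 with copies added, -0.081 to 0.060) and for SLC38A2 (-0.099 to 0.29). CARE matches fell from 6 windows to 2 in the first 250 bases, since the other matches lay at or just after the start. That is 9.09% to 3.03% of member windows, beside 3.61% to 3.13% of all windows. The cause of the other shifts was not tested. With the replicate number as a replicate block, 10 members were called, SLC7A5 (-0.45, edgeR adjusted p = 0.0245) and SLC43A2 (0.63, edgeR adjusted p = 0.0323) in addition, and 3748 genes over all against 3513; each library correlated best with its own number, a hint from the data and not from the design.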

Other observations

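Genes whose symbols extend a transporter's name were outside the set. SLC6A10P, a pseudogene nearly identical to SLC6A8, was at 15.3 ± 2.64 CPM in ALDH_High against 2.14 ± 0.664 CPM in ALDH_Low (SD, n = 3 each, log2 fold change 2.84, SE 0.26, edgeR adjusted p = 5.55e-05), and reads of the pair may have been split between them. SLC7A5P1, a pseudogene of SLC7A5, had a log2 fold change of -0.22 (edgeR adjusted p = 0.732), and SLC7A5P2 had at most 4 counts. SLC7A11-AS1, antisense to SLC7A11, had 5 to 12 counts a library.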
